A study of Homo sapiens with 12 samples.

Results

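T-cell acute lymphoblastic leukaemia (T-ALL) falls into types that are named after the transcription factor that drives them, and the binding of KDM2B was compared here between a pair of TLX3-type lines, DND41 and HPB-ALL, and a pair of TAL1-type lines, JURKAT and SIL-ALL. These are 4 of the 7 human leukaemia lines with a KDM2B peak list, among 12 libraries in all. The labels give only the name of each line. The sides of DND41, HPB-ALL and JURKAT are background knowledge of these lines, that of SIL-ALL was taken as given and is less certain, and neither TLX3 nor TAL1 was measured in these lists. All 4 lines are untreated cultures grown in IMDM with fetal bovine serum, each with 1 chromatin immunoprecipitation and sequencing (ChIP-seq) library made with a KDM2B antibody. Each established line stands for the leukaemia of 1 patient and has acquired further mutations, so a side is represented by 2 genomes and has no replicate library of either. Input libraries were not used here, and none was listed for DND41 and JURKAT among the samples used here. K562, REH and SUP-B15, a myeloid and a pair of B-cell precursor lines, serve below as lists that had no part in defining the regions.

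KDM2B is a histone demethylase of the JmjC class that recognises unmethylated CpG sites through a CXXC zinc finger. It recruits a variant Polycomb repressive complex, PRC1.1, with PCGF1, BCOR and the ubiquitin ligases RING1 and RNF2, to CpG islands. TLX3 is a homeobox gene that is silent in normal thymocytes and is commonly switched on by a translocation that places it beside BCL11B. TAL1 is a basic helix-loop-helix factor of blood stem cells and erythroid cells, switched on in T-ALL by a deletion that joins it to STIL or by a new upstream enhancer, and it works with GATA3, RUNX1, MYB, LMO1 or LMO2 and the E proteins TCF3 and TCF12.

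The peak lists of the sides were alike in size. They held 14944 peaks in DND41 and 12765 in HPB-ALL, against 14839 in JURKAT and 15304 in SIL-ALL. HPB-ALL had the shortest list, and the other TLX3-type line was within the range of the TAL1-type lines. Median peak width was 213 bp in DND41 and 253 bp in HPB-ALL, against 240 bp in JURKAT and 223 bp in SIL-ALL. The peaks covered 4.28 Mb in DND41 and 4.34 Mb in HPB-ALL, against 4.57 Mb in JURKAT and 4.85 Mb in SIL-ALL, and of these measures it was the one in which the sides did not overlap. The difference in covered length, TLX3-type minus TAL1-type, was -0.398 Mb (exact permutation p = 0.333, two-sided, 2 lines per side). That is the smallest p that 2 lines against 2 can give, so no list measure could pass a threshold of 0.05. Such p-values weigh the spread between lines and libraries together. The lists had different floors, with a lowest score of 60 in DND41 and 80 in HPB-ALL, against 50 in JURKAT and 80 in SIL-ALL as whole numbers. Floors and inputs thus both separate DND41 and JURKAT from HPB-ALL and SIL-ALL, which is one of the other ways of pairing the lines and not the division by driver. Sequencing depth is not known for any of the lists.

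Regions exclusive to 1 side existed in both directions, and pairing the lines by driver gave a number of them between those of the 2 pairings that cut across the drivers. Peaks of the 4 lists that shared at least 1 bp were merged into 25359 regions. Of these, 14968 (59.0%) held a peak of 1 line only, 4518 (17.8%) of 2 lines, 2812 (11.1%) of 3 lines and 3061 (12.1%) of all 4. A region called in DND41 and HPB-ALL and in neither TAL1-type line is termed TLX3-only, and 634 regions were of this kind (2.50% of all merged regions). The converse, TAL1-only, comprised 906 regions (3.57%).

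The 2 other pairings served as the measure of what pairs of these lists share without regard to driver. DND41 with JURKAT had 685 exclusive regions (2.70%) and HPB-ALL with SIL-ALL had 716 (2.82%). DND41 with SIL-ALL had 854 (3.37%) and HPB-ALL with JURKAT had 723 (2.85%). The pairing by driver therefore summed to 1540 regions, which lies between the sums of the other pairings, 1401 and 1577. TLX3-only was the smallest of the 6 sets and TAL1-only the largest, and the TAL1-type lists are together the longer ones.

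With lists of equal length the sets moved closer together. When each list was cut to its 12765 top-scored peaks, the length of the HPB-ALL list, 664 of 22306 merged regions were TLX3-only (2.98%) and 705 were TAL1-only (3.16%). The excess of TAL1-only over TLX3-only regions was thereby 41, against 272 with the lists as deposited. The other pairs then had 580 regions (DND41 with JURKAT, 2.60%), 712 (HPB-ALL with SIL-ALL, 3.19%), 689 (DND41 with SIL-ALL, 3.09%) and 726 (HPB-ALL with JURKAT, 3.25%). The sum for the pairing by driver, 1369, again stood between the others, 1292 and 1415. For any one region, 2 lines against 2 could not give an exact permutation p below 0.333, so regions are described and not tested.

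**Figure D1:**
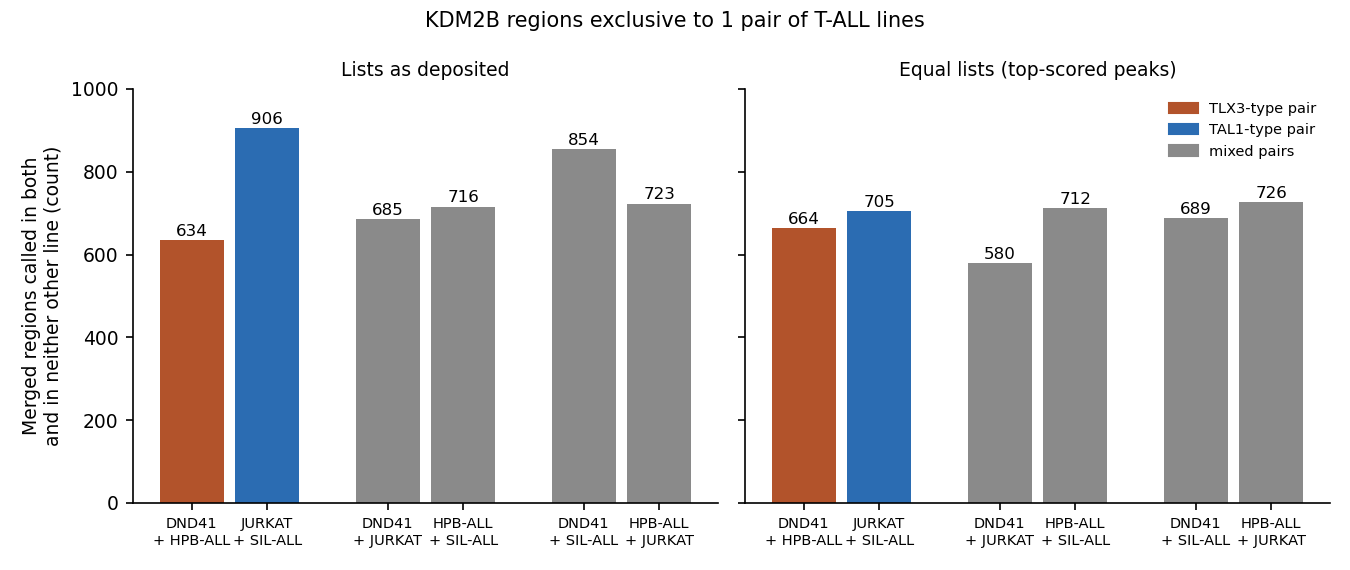
Number of merged regions (vertical axis) called in both lines of a pair and in neither other T-ALL line, for the 3 ways of pairing 4 lines, with the lists as deposited (left) and with the 12765 top-scored peaks of each list (right). The TLX3-type pair (brown) has 634 and the TAL1-type pair (blue) 906 regions on the left, against 664 and 705 on the right, where the mixed pairs (grey) run from 580 to 726.

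The similarity of whole lists, averaged over pairs, was nearly the same within and between the sides. It was measured by the phi coefficient, which is 1 where 2 lines are called in the same regions and falls as their calls diverge. Regions without a call in any of the 4 lines are not in the table, which lowers phi for all pairs and need not lower it equally. DND41 with HPB-ALL had the highest phi of the 6 pairs, 0.125, whereas JURKAT with SIL-ALL had the lowest, -0.025. The mixed pairs ranged from 0.019 to 0.067. By phi with the lists as deposited, the TLX3-type lines were thus the most alike pair and the TAL1-type lines the least alike. The order depended on the lists used. When peaks scored below a common floor of 80.03 were dropped from every list, DND41 with JURKAT had the highest phi, 0.195. HPB-ALL with SIL-ALL then had the lowest, -0.167. With the lists as deposited phi averaged 0.050 within the sides and 0.049 between them, a difference of 0.000531 (exact permutation over the 3 pairings, one-sided p = 0.667, with 0.333 the smallest possible). In the equal lists phi was 0.099 for DND41 with HPB-ALL and 0.005 for JURKAT with SIL-ALL, against 0.098 for DND41 with SIL-ALL, so that the TLX3-type pair no longer stood clear of the highest mixed pair. With the 6382 top-scored peaks of each list both places changed, with 0.118 for DND41 with SIL-ALL against 0.103 for the TLX3-type pair, and -0.020 for HPB-ALL with JURKAT against -0.019 for the TAL1-type pair.

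The strongest TLX3-only region lay in 5q11.2. Strength is given as the percentile of a peak's score within its own list, and regions are ranked by its mean over the 2 lines of the side. Genes named beside a band are background on that band. Whether a region overlaps them was not determined, since no gene annotation of the build of the lists, hg19, was used here. The 5q11.2 region (hg19, chromosome 5, 57755204 to 57756764) had a score of 658 in DND41 and 662 in HPB-ALL, which are percentiles 97.7 and 95.7, and no peak in JURKAT or SIL-ALL. The nearest peak of a TAL1-type line was 578 kb away. REH and SUP-B15 had a peak in it too, at percentiles 27.0 and 80.9 of their lists. The band holds PLK2, a polo-like kinase gene.

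The second TLX3-only region was in 2p25.1 (chromosome 2, 9142813 to 9143874), with scores of 344 in DND41 and 635 in HPB-ALL, 165 kb from the nearest TAL1-type peak. It also had a peak in K562 and in REH. The next, in 2q37.3 (chromosome 2, 242576907 to 242577675), had scores of 325 in DND41 and 535 in HPB-ALL and no peak in any other of the 7 lines. It was not isolated, since a TAL1-type peak lay 0.785 kb away. The region in 11p11.2 (chromosome 11, 46403148 to 46403988) was likewise only 0.166 kb from a TAL1-type peak and was called in K562, REH and SUP-B15. That in 10q23.32 (chromosome 10, 93999358 to 94000355) reached percentile 81.5 in DND41 and 97.3 in HPB-ALL.

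The remaining 5 of the 10 highest TLX3-only regions had mean percentiles of 85.5 to 88.8 and lay in 20q13.32, 19p13.2, 18q12.3, 13q12.3 and 2p23.3. The one in 18q12.3 (chromosome 18, 42258971 to 42259750) was 427 kb from any TAL1-type peak and was called in none of K562, REH and SUP-B15. That band holds SETBP1, a gene mutated in myeloid malignancies. Its scores were 186 in DND41 and 462 in HPB-ALL.

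TAL1-only regions included stronger peaks than TLX3-only regions, as did the regions of the mixed pairs that include JURKAT. The strongest lay in 12q24.31 (chromosome 12, 121197318 to 121199767; 2450 bp wide), with scores of 1624 in JURKAT and 2516 in SIL-ALL, which stand at percentiles 99.9 and 99.8. DND41, HPB-ALL and the 3 lines outside T-ALL had no peak there, and the nearest TLX3-type peak was 33.3 kb away. The second, in 9q22.32 (chromosome 9, 98267802 to 98272288; 4487 bp wide), had scores of 2399 in JURKAT and 1072 in SIL-ALL. It was also called in K562 and SUP-B15, at percentiles 85.0 and 93.7. The band holds PTCH1, the Hedgehog receptor gene.

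The third TAL1-only region was in 2p24.3 (chromosome 2, 16081373 to 16082923), with scores of 672 in JURKAT and 933 in SIL-ALL, 349 kb from the nearest TLX3-type peak. It was called in none of K562, REH and SUP-B15. The band holds the proto-oncogene MYCN. This region was 1 of 3 TAL1-only regions within 2.31 kb (chromosome 2, 16080618 to 16082923), a group that was picked out after its values were seen.

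The following TAL1-only regions lay in 8q22.2 (chromosome 8, 99956372 to 99957838), 7p21.2 (chromosome 7, 16308403 to 16309058) and 15q14 (chromosome 15, 38543736 to 38544982), the last a band that holds SPRED1, an inhibitor of RAS signalling. In 15q14 the scores were 458 in JURKAT and 789 in SIL-ALL, and a TLX3-type peak was 201 kb away at the nearest. The last 4 of the 10 had mean percentiles of at most 96.1 and lay in 8p23.1, 6p22.3, 20p11.23 and 9q21.13. Among them, the regions in 8p23.1 and 6p22.3 were called in all 3 lines outside T-ALL, and those in 20p11.23 and 9q21.13 in none.

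**Figure D2:**
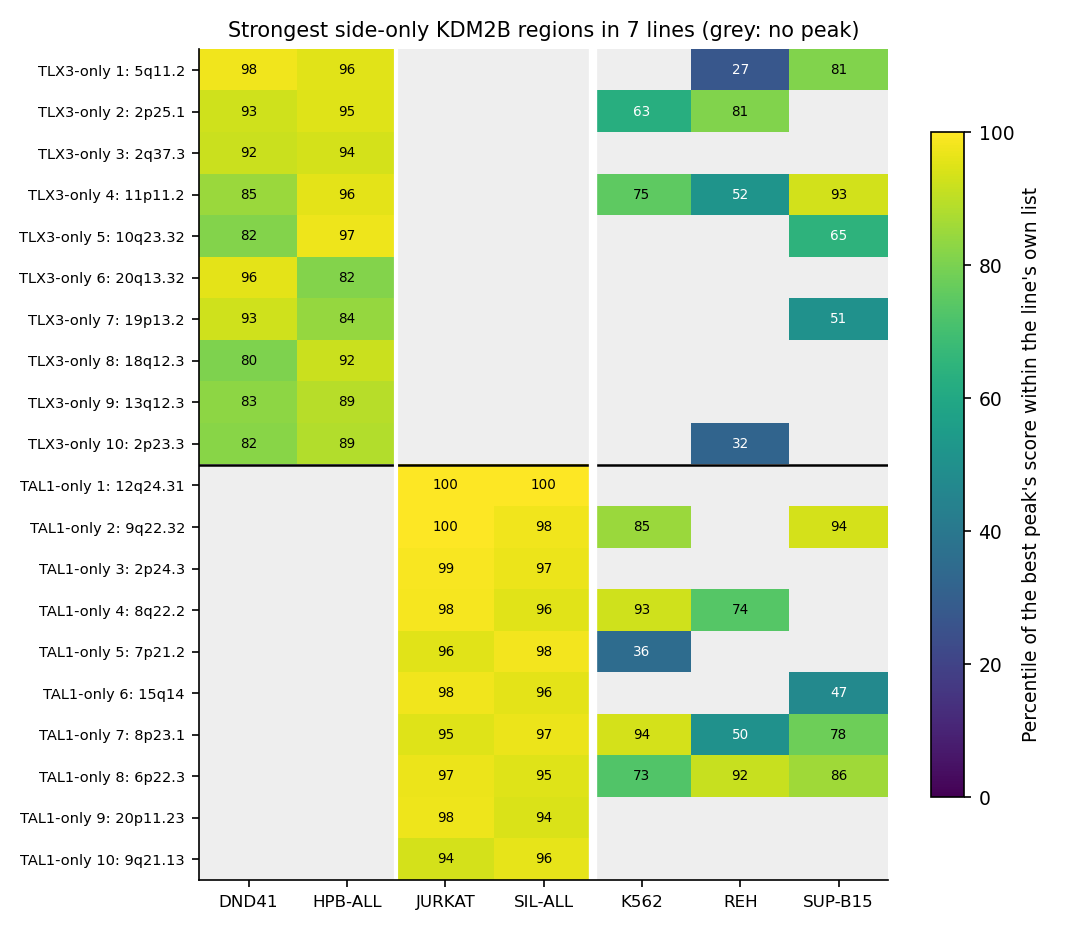
The 10 TLX3-only and the 10 TAL1-only regions with the highest mean percentile (rows, by band) in the 7 lines (columns); colour and number give the percentile of the best peak's score within the line's own list, and grey marks no peak. The TLX3-only regions begin at a mean percentile of 96.7 and the TAL1-only regions at 99.9, and 6 of each 10 have a peak in at least 1 line outside T-ALL.

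Side-only regions were mostly of middling strength in their lists. The median of the mean percentile was 41.7 (quartiles 28.6 and 57.7) for TLX3-only regions and 48.6 (33.1 and 65.5) for TAL1-only regions, against 74.3 for the regions of all 4 lines. Regions of 1 line alone were weaker, with medians of 27.6 in DND41 and 29.2 in HPB-ALL, against 36.2 in JURKAT and 31.4 in SIL-ALL, and the mixed pairs had 41.9 to 47.6. A mean percentile above 90 was reached by 4 TLX3-only regions (0.631%) and by 30 TAL1-only regions (3.31%). The mixed pairs spanned the same range, with 4 of 716 for HPB-ALL with SIL-ALL, 7 of 854 for DND41 with SIL-ALL, 22 of 723 for HPB-ALL with JURKAT and 29 of 685 for DND41 with JURKAT. The 3 sets with the larger numbers are those that include JURKAT, whose regions of 1 line alone also passed percentile 90 more often (4.25%, against 0.734% in DND41, 1.07% in HPB-ALL and 1.22% in SIL-ALL). In width, too, side-only regions were like the mixed pairs, with a median of 324 bp for TLX3-only and 344 bp for TAL1-only regions, against 322 to 362 bp for the mixed pairs, 158 to 208 bp for regions of 1 line and 983 bp for regions of all 4 lines. Across TLX3-only regions the scores of DND41 and HPB-ALL had a Spearman rho of 0.17, and across TAL1-only regions those of JURKAT and SIL-ALL had a rho of 0.24 (634 and 906 regions, which share the same libraries).

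Many side-only regions lay right beside a peak of the other side. Of the TLX3-only regions, 315 had a peak of JURKAT or SIL-ALL within 500 bp, which is 49.7% (Wilson 95% interval 45.8 to 53.6%). Of the TAL1-only regions, 285 had a peak of DND41 or HPB-ALL within 500 bp, or 31.5% (28.5 to 34.6%). The shares for the mixed pairs were 41.0% (DND41 with JURKAT), 44.6% (HPB-ALL with SIL-ALL), 42.9% (DND41 with SIL-ALL) and 32.8% (HPB-ALL with JURKAT). The intervals cover counting error alone. TLX3-only regions had the highest and TAL1-only regions the lowest of the 6 shares. The TAL1-type lists, against which the TLX3-only regions are set, cover more of the genome, and the part of this in the difference was not tested.

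Isolated regions, with no peak of the other side within 50 kb, numbered 129 among TLX3-only (20.3%) and 258 among TAL1-only regions (28.5%). Together these are 387, between the 291 and 413 of the other pairings. With a distance of 5 kb the counts were 261 TLX3-only and 513 TAL1-only regions, and the sum of 774 again lay between 659 and 801. A region bound in all 4 lines was within 5 kb of 108 TLX3-only regions (17.0%) and 132 TAL1-only regions (14.6%).

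**Figure D3:**
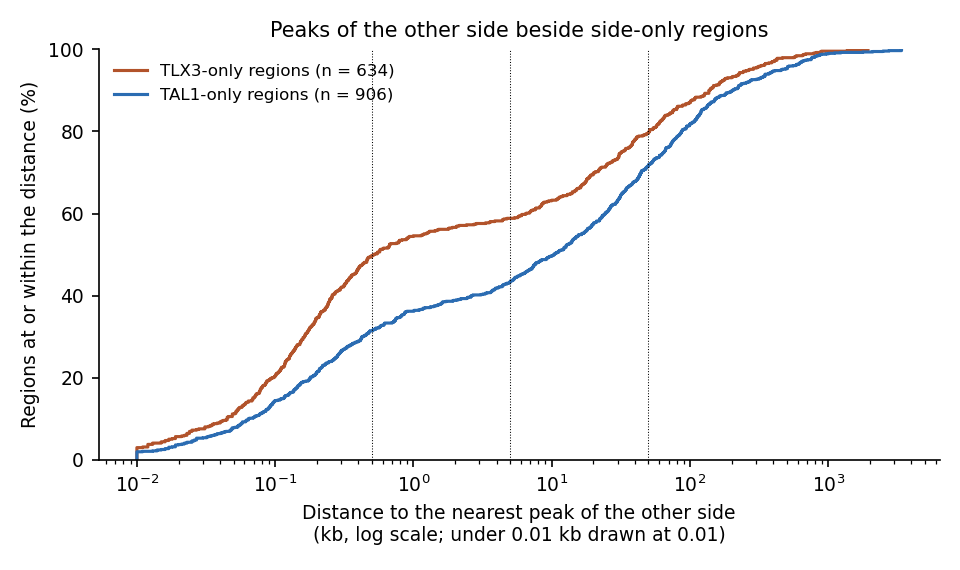
Share of side-only regions (vertical axis, %) that have a peak of the other side at or within the distance on the horizontal axis (kb, log scale), for 634 TLX3-only (brown) and 906 TAL1-only regions (blue); dotted lines mark 0.5, 5 and 50 kb. Within 0.5 kb the curves stand at 49.7% and 31.5%, and within 50 kb at 79.7% and 71.5%.

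The share of side-only regions that were also called in the 3 lines outside T-ALL had overlapping intervals for the 2 sides when overlap was required, and not when a peak nearby was counted. A peak in K562, REH or SUP-B15 overlapped 235 TLX3-only regions, 37.1% (Wilson 95% interval 33.4 to 40.9%), and 300 TAL1-only regions, 33.1% (30.1 to 36.2%). Among all other merged regions the share was 35.7%, and among regions of all 4 lines it was 78.6%. By line, K562, an erythroid-myeloid line, had a peak in 14.7% of TLX3-only and 17.2% of TAL1-only regions. The intervals of these shares, 12.1 to 17.6% and 14.9 to 19.8%, overlap. REH had a peak in 16.6% of TLX3-only and 14.8% of TAL1-only regions, and SUP-B15 in 18.8% and 15.6%. Regions exclusive to DND41 and JURKAT were the ones most often called elsewhere, with 46.7% (43.0 to 50.5%) in at least 1 and 8.61% in all 3 of these lines, against 2.37% of TLX3-only and 3.75% of TAL1-only regions in all 3. With equal lists the share in at least 1 line was 38.4% for TLX3-only and 37.9% for TAL1-only regions. When a peak within 500 bp was counted, it was 53.2% (49.3 to 57.0%) for TLX3-only and 43.4% (40.2 to 46.6%) for TAL1-only regions, against 48.0% for all other merged regions. The mixed pairs then ran from 41.5 to 59.9%. The intervals treat regions as independent and cover counting error alone. They do not measure the spread between lines, of which each side has 2, so they cannot tell whether the sides differ.

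Within the 3061 regions of all 4 lines, the order of scores split the lines by driver about as often as by either other pairing. Each line's scores were ranked over this common set of regions, from 0 to 100. The set itself depends on list length, with 2734 regions in the equal lists. The ranks of 4 lines without ties always set 1 pair above the other, so each region falls into exactly 1 of the 3 pairings, as 3054 of the 3061 did, and a count can be read only against those of the other pairings. Both TLX3-type lines ranked above both TAL1-type lines in 503 regions (16.4%), and both TAL1-type lines above both TLX3-type lines in 504 (16.5%). The sides therefore did not overlap in 1007 regions (32.9%), against 1021 (33.4%) for DND41 and JURKAT against HPB-ALL and SIL-ALL and 1026 (33.5%) for DND41 and SIL-ALL against HPB-ALL and JURKAT. A mean gap of over 40 points was found in 93 regions with the TLX3-type higher and 99 with the TAL1-type higher, 192 in all, against 192 and 219 in the other pairings. The place of the division by driver among the 3 pairings depended on the setting: with equal lists it had 912 of 2734 regions without overlap, against 916 and 901, and with peaks merged within 500 bp it had the most, 1124 of 3281, against 1051 and 1104. Spearman's rho of the scores over these regions was 0.455 for DND41 with HPB-ALL and 0.412 for JURKAT with SIL-ALL, and 0.419 to 0.466 for the mixed pairs, whose points share the same 4 libraries. The TAL1-type pair was again the least alike.

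**Figure D4:**
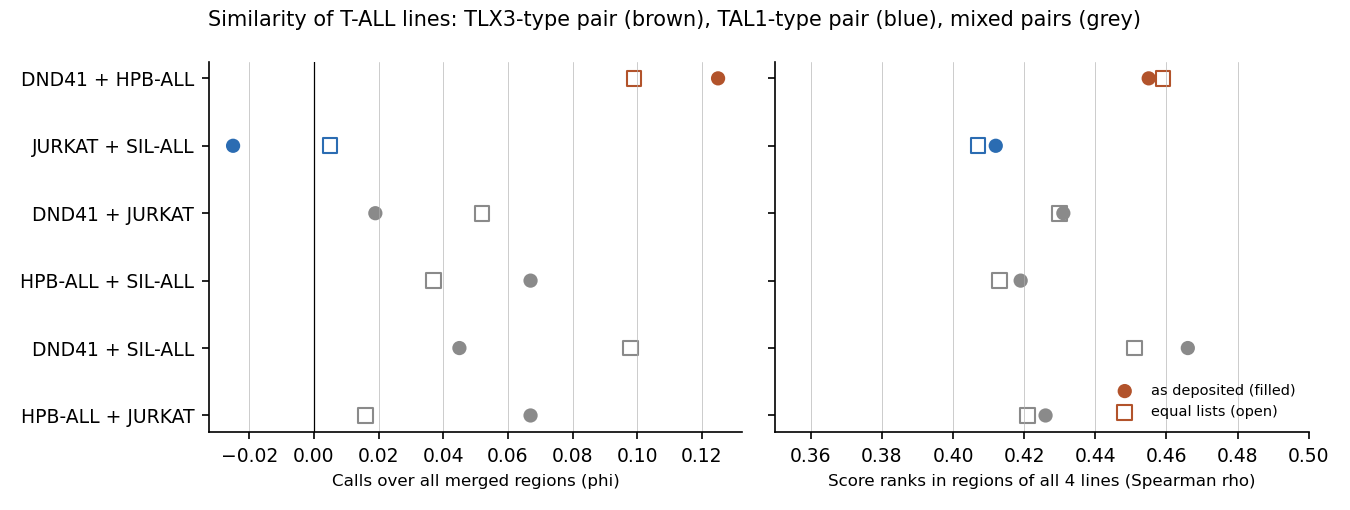
Similarity of the 6 pairs of T-ALL lines (rows), as phi of the calls over all merged regions (left) and as Spearman's rho of the scores over regions called in all 4 lines (right); filled points are lists as deposited and open squares equal lists. The TLX3-type pair (brown) has the highest phi, 0.125, and the TAL1-type pair (blue) the lowest phi, -0.025, and the lowest rho, 0.412.

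Single shared regions differed widely in rank between the sides, as they did in the other pairings. The largest gap between the sides was 77.2 points. It was 82.6 points for DND41 and JURKAT against HPB-ALL and SIL-ALL, and 72.9 points for the remaining pairing. The gap of 77.2 points was in 3q22.1 (chromosome 3, 129323698 to 129325662). That region ranked at 96.5 in DND41 and 96.6 in HPB-ALL, against 32.4 in JURKAT and 6.24 in SIL-ALL. Its scores were 1038 in DND41 and 1206 in HPB-ALL, against 89.8 in JURKAT and 98.6 in SIL-ALL, and it was called in K562, REH and SUP-B15 as well. The band holds PLXND1, a semaphorin receptor gene with a role in mouse thymocytes. The next was in 1q44 (chromosome 1, 244013543 to 244014370), with ranks of 75.7 in DND41 and 79.8 in HPB-ALL, against 8.62 in JURKAT and 0.849 in SIL-ALL. It was followed by regions in 12q24.33, 17q25.3 and 17q23.3, with gaps of 62.6 to 63.9 points.

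In the opposite direction the largest gap was in 15q22.2 (chromosome 15, 63340520 to 63341599). It ranked at 5.91 in DND41 and 4.18 in HPB-ALL, against 74.0 in JURKAT and 82.5 in SIL-ALL, with scores of 71.5 in DND41 and 87.8 in HPB-ALL, against 200 in JURKAT and 756 in SIL-ALL. A region in 6p21.33 (chromosome 6, 30418312 to 30419261), a band that holds class I histocompatibility genes, ranked at 23.6 in DND41 and 13.8 in HPB-ALL, against 84.6 in JURKAT and 95.1 in SIL-ALL. The others were in 9q34.13, 16p11.2 and 1p36.22, with differences of -67.0 to -63.7 points, TLX3-type minus TAL1-type. With 2 lines per side, a test of any 1 of these gaps could not give an exact permutation p below 0.333, so they are given as a description.

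By position, 4 of 43 chromosome arms differed between TLX3-only and TAL1-only regions by more than their Wilson 95% intervals, which cover counting error alone. The same count was not made for the other pairings, so it cannot be read as a mark of the division by driver. Mixed pairs differed by arm too. On 20q, DND41 with SIL-ALL had 39 exclusive regions (4.57%) and HPB-ALL with JURKAT 3 (0.415%). On 9q these pairs had 15 (1.76%) and 45 (6.22%). Arm 3p held 3 TLX3-only regions, 0.473% (0.161 to 1.38%), and 34 TAL1-only regions, 3.75% (2.70 to 5.20%), beside 2.37% of all merged regions. On 3p lay 2.80% of the peaks of DND41 and 0.470% of those of HPB-ALL (60 peaks), against 2.73% in JURKAT and 2.28% in SIL-ALL. All 3 pairs with HPB-ALL were low there, with 2 exclusive regions for HPB-ALL with JURKAT and 0 for HPB-ALL with SIL-ALL, whereas DND41 with JURKAT had 51 and DND41 with SIL-ALL 37. The scarcity of TLX3-only regions on 3p thus went with 1 line, HPB-ALL. Copy number was not used here, and its part in these counts was not tested.

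Band 16p13.3 had 0 TLX3-only regions and 25 TAL1-only regions, the most of any band. Of its 323 merged regions, DND41 was called in 165 and HPB-ALL in 18, against 124 for JURKAT and 220 for SIL-ALL, and the mixed pair DND41 with SIL-ALL had 37 exclusive regions there. Without arms 3p and 16p, 621 TLX3-only and 839 TAL1-only regions remained, and their sum of 1460 still lay between those of the other pairings, 1312 and 1473.

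On 22q, TLX3-only regions made up 1.42% (0.749 to 2.68%) and TAL1-only regions 4.30% (3.16 to 5.83%). There the pairs with SIL-ALL were the larger ones, 39 regions with JURKAT, 37 with DND41 and 19 with HPB-ALL, against 9 for DND41 with HPB-ALL. On 4q the order was the opposite, 3.79% (2.56 to 5.57%) of TLX3-only and 1.32% (0.759 to 2.30%) of TAL1-only regions, and the largest set was a mixed one, 35 regions of HPB-ALL with JURKAT. The pairs with HPB-ALL were the larger ones there, with 24 regions for DND41 and 17 for SIL-ALL as the other line. Pairs without HPB-ALL had 9 to 12, so the contrast on 4q went with 1 line, HPB-ALL. On 4p there were 2 TLX3-only regions, 0.315% (0.0866 to 1.14%), and 17 TAL1-only regions, 1.88% (1.17 to 2.98%), beside 2 to 10 in the mixed pairs. Giemsa-light bands, which tend to be gene-rich, held 63.6% (59.7 to 67.2%) of TLX3-only and 62.4% (59.2 to 65.5%) of TAL1-only regions, against 65.2% of all merged regions.

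**Figure D5:**
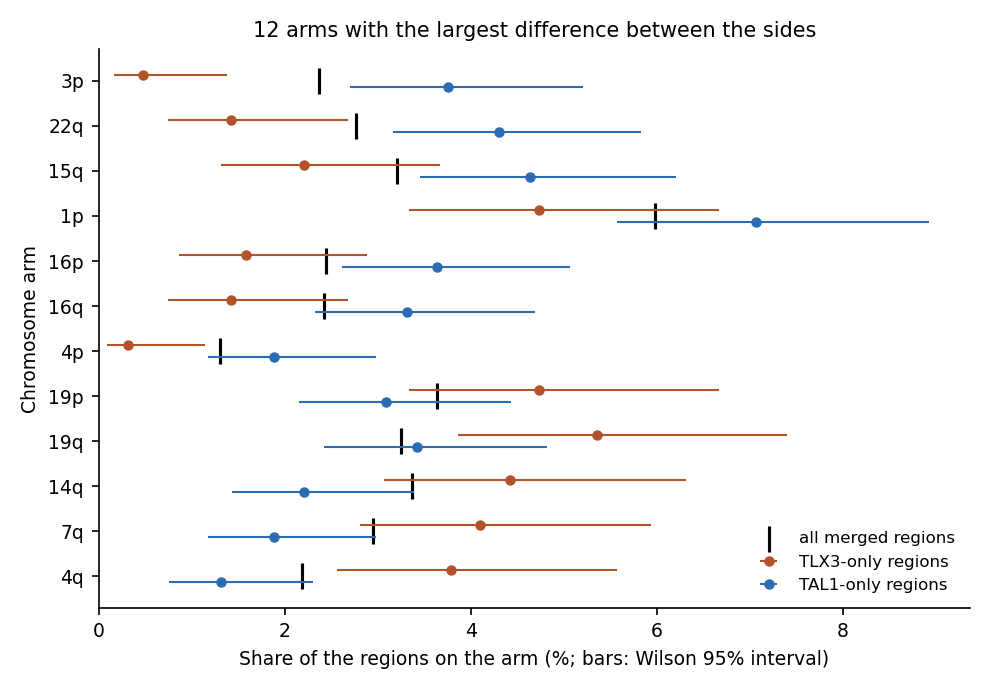
Share of TLX3-only regions (brown) and TAL1-only regions (blue) on the 12 chromosome arms with the largest difference between them (horizontal axis, %), with Wilson 95% intervals and the share of all merged regions (black tick). On 3p, 22q and 4p the TLX3-only share lies below the TAL1-only share by more than the intervals, and on 4q above it.

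The bands with the most TLX3-only regions were 17q25.3, 19p13.3 and 19q13.12. Band 17q25.3 had 12 TLX3-only and 16 TAL1-only regions of 331, and 19p13.3 had 11 and 8 of 410, both bands rich in regions of every kind. Band 19q13.12, which holds a large cluster of KRAB zinc finger genes, was smaller, with 10 TLX3-only and 5 TAL1-only regions of 79. Of the 10, 3 lay within 2.13 kb (chromosome 19, 37958235 to 37960361). The 4 mixed pairs had 1 to 2 exclusive regions each in 19q13.12, fewer than either side. Among TAL1-only regions 16p13.3 and 17q25.3 were followed by 16q24.3, with 3 TLX3-only and 13 TAL1-only regions of 120, beside 1 to 4 in the mixed pairs. All these bands were picked by their side-only counts, so the contrast with the mixed pairs is partly set by the choice.

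Summed over the bands of genes that define the T-ALL types, side-only regions had shares near those over all bands. Over the 11 bands of TAL1 and its partners and targets there were 18 TLX3-only regions (2.20% of the 817 merged regions there) and 25 TAL1-only regions (3.06%), against 2.50% and 3.57% over all bands. These sums rest largely on the band of TCF3, 19p13.3, which held 410 of the 817 regions, 11 of them TLX3-only and 8 TAL1-only. They therefore do not give the shares of the other bands of this list. TAL1-only regions outnumbered TLX3-only regions in 7 of the 11 bands, and the reverse held in 4. Over all 775 bands with a region, these numbers were 271 and 190, with 314 equal. The band of TAL1 and STIL, 1p33, had 0 TLX3-only regions and 1 TAL1-only region of 26, and DND41 was called in 6 of the 26 and HPB-ALL in 8, against 15 for JURKAT and 7 for SIL-ALL. The band of GATA3, 10p14, had 1 TLX3-only and 0 TAL1-only regions of 62, and that of MYB, 6q23.3, had 0 and 1 of 25. The band of ARID5B, 10q21.2, had 0 TLX3-only and 3 TAL1-only regions of 22.

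Over the 8 bands of genes tied to the TLX3 type there were 8 TLX3-only (2.43% of 329) and 11 TAL1-only regions (3.34%). The band of TLX3 itself, 5q35.1, had 4 TLX3-only and 2 TAL1-only regions of 54, with DND41 called in 29, HPB-ALL in 14, JURKAT in 20 and SIL-ALL in 18. The band of BCL11B, 14q32.2, had 2 of each among 76, and the band of the HOXA cluster, 7p15.2, had 0 of each among 19. The band of ETV6, 12p13.2, had 0 TLX3-only and 2 TAL1-only regions of 29.

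In the 13 bands of genes important in T-ALL at large there were 15 TLX3-only (2.07% of 726) and 25 TAL1-only regions (3.44%). NOTCH1, the receptor most often mutated in T-ALL, lies in 9q34.3, which had 4 TLX3-only and 5 TAL1-only regions of 137. The band of MYC, 8q24.21, had 0 of each among 18, and so did the bands of IKZF1, 7p12.2, and CDKN2A, 9p21.3, among 9 and 17 regions. The band of SATB1, 3p24.3, had 0 TLX3-only and 2 TAL1-only regions of 34, and HPB-ALL was called in 3 of them, against 18 to 21 for the other lines.

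The 5 bands of the KDM2B complex held 9 TLX3-only (2.65% of 339) and 8 TAL1-only regions (2.36%). The band of KDM2B, 12q24.31, had 3 of each among 152. The band of BCOR, Xp11.4, had 4 TLX3-only and 1 TAL1-only regions of 53, and 3 of the 4 lay within 22.4 kb (chromosome X, 40013024 to 40035406). Of the 12 merged regions in that interval, DND41 was called in 5, HPB-ALL in 8, JURKAT in 1 and SIL-ALL in 4. The interval was picked by its TLX3-only regions, so these calls are partly set by the choice. Over the whole band, DND41 was called in 14 of the 53 regions, HPB-ALL in 25, JURKAT in 9 and SIL-ALL in 32. A band spans many genes, so these counts do not place a region at the gene named.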

How the data were processed

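The 4 lists of DND41, HPB-ALL, JURKAT and SIL-ALL were used, with those of K562, REH and SUP-B15 for comparison. The submitters' processing notes name the aligner Bowtie 1.1.1, the read quality tool FastQC 0.10.1 and the genome build hg19. The deposited lists give chromosome, start, end, name and a score per peak, the authors' own value with no unit stated. Peak names begin with MACS; version, control and threshold: not given in the sources used here. Peaks were called per library, and depth is unknown. Outside the common floor, a score served to order or select peaks of its own list.

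Peaks sharing at least 1 bp were merged, and percentiles are the share of a list's peaks with a score at or below a peak's. Equal lists kept ties in genome order. Ranks in regions of all 4 lines used the best score. Positions count from 1, and bands come from the hg19 table of circlize 0.4.16 by midpoint. Samples were grouped by line; the members, lists and tests were chosen with earlier results of these data known. Regions named are the 10 highest of each side by mean percentile, the 5 largest rank gaps in each direction among regions whose sides do not overlap, and the 3 bands with most regions per side. Counting was checked on simulated lists. Tests were exact permutations; the only gene table used here is of another build, so no region was assigned to a gene, gene tests were not run and no sequence is shown. Alternatives were equal lists of 12765 and of 6382 peaks, a common floor, 500 bp merging, 50% reciprocal overlap, autosomes, peaks cut to 200 bp and each line left out, and for ranks the summed score. R 4.3.3, Python 3.11.15, numpy 2.4.6, pandas 2.3.3, scipy 1.17.1 and matplotlib 3.10.9 were used.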

Additional observations from a re-analysis of the deposited data

How the results depend on the processing

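The excess of exclusive regions of the pairing by driver over the mean of the other pairings, 51.0 with the lists as deposited, was 15.5 with equal lists and turned to -13.5 with 6382 peaks per list, to -303 with a common floor and to -136 with 50% reciprocal overlap. With 50% reciprocal overlap the sum was the lowest of the 3 pairings (2698, against 2812 and 2855), and with the common floor too (1081, against 1551 and 1217). The reciprocal overlap counts are of peaks of the first-named line of each pair, not of merged regions. Such a peak may still share bases with a peak of the other pair. The common floor left 7406 peaks in JURKAT and 15304 in SIL-ALL, and HPB-ALL with SIL-ALL then had 1333 exclusive regions. The difference in phi turned to -0.00220 with 6382 peaks per list, -0.00137 with 500 bp merging, -0.000812 with peaks cut to 200 bp and -0.00686 with 50% reciprocal overlap . With a line left out, only the pair of the other side stays whole. Its exclusive regions were then set against the mean of the remaining mixed pairs, a measure unlike the excess of 51.0. This difference ranged from -261 without JURKAT to 261 without DND41 (-8.00 without HPB-ALL and 126 without SIL-ALL). The phi of that pair minus the mean of the mixed pairs ranged from -0.125 without DND41 to 0.101 without JURKAT or SIL-ALL (-0.0636 without HPB-ALL). Its sign was negative where the TAL1-type pair was left and positive where the TLX3-type pair was left.

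TLX3-only regions numbered 366 with 6382 peaks per list, 356 with 500 bp merging and 978 with peaks cut to 200 bp. With 50% reciprocal overlap the count was of DND41 peaks, 1318. TAL1-only regions numbered 401 with 6382 peaks per list, 529 with the common floor, 660 with 500 bp merging and 1201 with peaks cut to 200 bp. With 50% reciprocal overlap the count was of JURKAT peaks, 1380. The excess of TAL1-only over TLX3-only regions was 304 with 500 bp merging, against 272 with the lists as deposited. It was 223 with peaks cut to 200 bp, 62 in peaks with 50% reciprocal overlap, 41 with equal lists and 35 with 6382 peaks per list. TLX3-only regions exceeded TAL1-only regions under the common floor alone (552 against 529). The isolated counts, 261 and 513 at 5 kb and 129 and 258 at 50 kb, and the omission of 3p and 16p were chosen after the data were seen. With the common floor the difference in median width turned to -17.0 bp, and that in covered length shrank to -0.0941 Mb, with sides that overlapped. Counting peaks within 500 bp, K562, REH or SUP-B15 had a peak at 53.2% of TLX3-only and 43.4% of TAL1-only regions, and with equal lists at 37.9% of TAL1-only regions. Of the 10 named regions a side, 7 TLX3-only and 10 TAL1-only stayed side-only with 500 bp merging, and 9 and 8 with peaks cut to 200 bp. Of 64 alternative values, 12 reversed. Only differences could reverse, namely the excess, the phi difference and the differences in list measures. The 64 also include many counts and shares, which could not, so the 12 understate how often the differences turned. Others kept their direction and changed in size, among them the excess (4.50 with peaks cut to 200 bp), the phi difference (0.0199 with the common floor) and the difference in peak number (-190 with the common floor, against -1217). The cause was not tested. No paired analysis was possible because the lists are single and carry no shared numbers. Unknown depth limits every absence of a peak.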

Other observations

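Groups were sought after the data were seen. Groups of at least 3 side-only regions with gaps of at most 50 kb were rare, with 7 groups of TLX3-only regions (21 regions) and 13 of TAL1-only regions (40 regions). DND41 with SIL-ALL, a mixed pair, had 24 such groups (83 regions), DND41 with JURKAT had 14, HPB-ALL with JURKAT 7 and HPB-ALL with SIL-ALL 5. Compact TLX3-only groups lay in 3q13.2 (chromosome 3, 113251210 to 113252476), 19q13.12 (chromosome 19, 37958235 to 37960361) and 20p13 (chromosome 20, 2505003 to 2506259), and in none of these did JURKAT or SIL-ALL have a peak. Compact TAL1-only groups without a DND41 or HPB-ALL peak lay in 1q25.2 (chromosome 1, 180199398 to 180201435), 4p14 (chromosome 4, 40303672 to 40314331), 11q12.3 (chromosome 11, 62312247 to 62313182) and 14q12 (chromosome 14, 24835270 to 24836801).

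Regions of 3 lines give each line's absences. DND41 was missing from 609 regions called in the other 3 lines and HPB-ALL from 771, against 832 for JURKAT and 600 for SIL-ALL. The strongest exclusive regions of the mixed pairs lay in 6q27 for DND41 with JURKAT (chromosome 6, 170599155 to 170600202; mean percentile 98.4), in 12p11.21 for HPB-ALL with JURKAT (chromosome 12, 31742595 to 31744443; 98.0), in 7q36.3 for HPB-ALL with SIL-ALL (chromosome 7, 157405470 to 157406961; 96.6) and in 2p22.1 for DND41 with SIL-ALL (chromosome 2, 38603410 to 38604473; 95.8). Each of the 6 pairs thus had an exclusive region with a mean percentile of 95.8 or more.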
